A study of Arabidopsis thaliana with 12 samples.

Results

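The transcripts described here were abundant and steady on every array of the series. A probe set, the group of short probes that reads 1 transcript on the array, was taken as a member if its signal was at least 400 on each of the 12 arrays and its highest signal was at most 1.7 times its lowest. Of 22746 probe sets other than the manufacturer's controls, 187 met both limits, and 24 of these that read cytosolic ribosomal protein genes were left out. The remaining 163 probe sets are the members. In the platform annotation 59 of them name 1 gene, 13 name several genes and are given only as counts and ranges, and the remaining 91, absent from that annotation, have no name here. Some of the 91 may also read ribosomal protein genes.

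RNA came from shoots and roots of Arabidopsis thaliana, thale cress, grown widely as a model plant, and the series concerns chronic low-level exposure to radioactive caesium-137. The 4 groups were control shoots, control roots, shoots of plants labelled cs and roots of plants labelled cs, with 3 Affymetrix ATH1 arrays each of total RNA. The label cs was read as caesium-137 exposure (Cs) from the series title. Every array carried developmental stage 1.0. The labels used here give no strain or genotype, no dose and no length of exposure, and nothing in them says that replicates came from separate plants, so the spread between arrays may be technical.

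Reference transcripts are used to put measurements of other transcripts on a common scale, and a good one holds its level in every tissue and treatment compared. Many of the named members encode parts of the mitochondrial respiratory chain, in which complex I passes electrons from NADH to ubiquinone, complex III passes them to cytochrome c, complex IV passes them to oxygen, and the ATP synthase uses the resulting proton gradient. Others encode the vacuolar proton pump (V-ATPase), which acidifies the vacuole and the secretory pathway, or enzymes of central metabolism. These are functions that nearly all living plant cells carry out.

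The organ labels were read against organ markers. For 6 photosynthesis genes the root minus shoot difference was -6.12 to -4.40 log2 units, and for the root gene PYK10 it was 2.91. Array medians ran from 41.1 to 49.6, and log2 signals of arrays within a group correlated between 0.927 and 0.975. Same-numbered control and Cs shoot arrays deviated together over all tested probe sets, most of all those numbered 1 (correlation 0.71). Without the 4 arrays numbered 1, 256 probe sets met the limits, against 194 without those numbered 2 and 236 without those numbered 3.

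The members were chosen by the values of all 12 arrays, so every comparison between organs or between exposed and control plants was used in choosing them. Their values are therefore a description. Counts of members past limma's threshold are printed beside the share over all tested probe sets. Intervals beside single differences rest on limma's estimate of the spread between arrays. That estimate is pooled over the 4 groups and drawn toward the spread of probe sets of like signal. It is therefore not the spread of the named gene alone. Neither is a test of the members. The mean signal of the members over the 12 arrays lay between 505 and 5854, with a median of 936. The highest-to-lowest ratio had a median of 1.53 in the members and of 2.86 in the 15508 probe sets bright enough to be tested, of which 10.8% had a ratio within the limit at any level. The coefficient of variation over the 12 arrays had a median of 13.1% in the members and 33.2% in all tested probe sets. The 13 members that name several genes had ratios from 1.21 to 1.69.

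**Figure D1:**
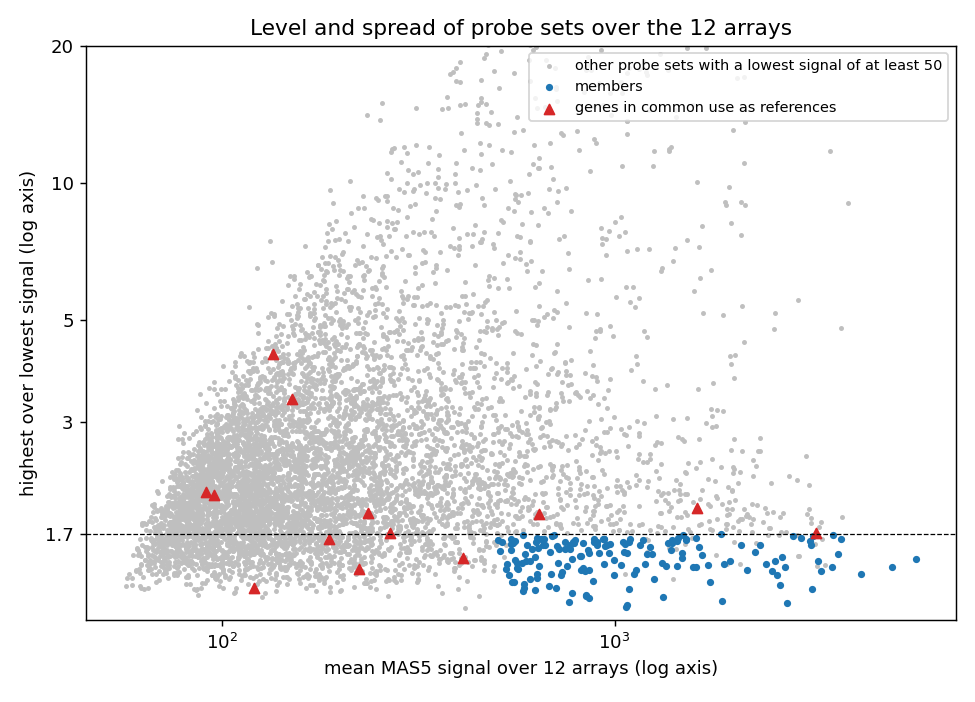
Mean signal over the 12 arrays against the ratio of highest to lowest signal (both axes logarithmic) for 6927 probe sets whose lowest signal was at least 50, with 119 above a ratio of 20 outside the axis. Members (blue) lie below the dashed line at 1.7, and 13 probe sets of genes in common use as references (triangles) are drawn, none of which is a member.

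The limits cut through a continuous spread of values. AT3G27240, which encodes a cytochrome c1 of complex III, was a member at a ratio of 1.69. GAPC2, a cytosolic glyceraldehyde-3-phosphate dehydrogenase of glycolysis, missed the limit at 1.71. The mitochondrial processing peptidase subunit MPPBETA, which is also a core part of complex III in plants, missed it at 1.72, as did AT3G58610, a ketol-acid reductoisomerase of branched-chain amino acid synthesis. At the limit on signal, AT2G20360, a subunit of complex I, was a member with a lowest signal of 402. AT3G62400, a subunit of complex IV, missed the limit with 399, and COB, the cell wall protein COBRA, missed it with 389.

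The smallest ratio of a named member was 1.19, for AT5G47570, a small membrane subunit of complex I. Its signal was 1111, 997 and 1115 in control shoots, 1065, 1028 and 1043 in Cs shoots, 1058, 1133 and 1184 in control roots, and 1068, 1012 and 1088 in Cs roots. All 4 groups overlapped. AT1G78040, a member of the pollen Ole e 1 and extensin family, had a ratio of 1.20. It read 2995, 2810 and 2885 in control shoots and 2611, 2927 and 2911 in Cs shoots. In roots it read 2768, 2628 and 2570 in control plants and 2496, 2752 and 2607 in Cs plants. Root arrays tended to the lower end of its range, and the organs overlapped.

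AT1G24360 encodes the 3-ketoacyl-acyl carrier protein reductase of fatty acid synthesis in plastids. Its ratio was 1.26, from signals of 810, 750 and 668 in control shoots, 743, 738 and 725 in Cs shoots, 778, 829 and 767 in control roots, and 836, 840 and 841 in Cs roots. The 3 Cs roots lay just above the 3 control roots, and the organs overlapped. AT4G22310, a mitochondrial pyruvate carrier, which brings pyruvate into the mitochondrion, had a ratio of 1.28. It read 600, 568 and 624 in control shoots, 671, 622 and 633 in Cs shoots, 578, 638 and 676 in control roots, and 629, 713 and 556 in Cs roots. Its highest and its lowest value were both in Cs roots.

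Cytosolic triose-phosphate isomerase (TPI), which interconverts the triose phosphates of glycolysis, had a ratio of 1.34. Its signals were 1953, 1758 and 1526 in control shoots, 1683, 1750 and 1545 in Cs shoots, 2041, 1767 and 1661 in control roots, and 1911, 1672 and 1682 in Cs roots. In both control groups and in Cs roots the array numbered 1 was the highest. AT3G08610, another small membrane subunit of complex I, read 1363, 1322 and 1205 in control shoots, 1313, 1249 and 1351 in Cs shoots, 1202, 1190 and 1387 in control roots, and 1276, 1026 and 1201 in Cs roots. Its ratio of 1.35 was set by 1 low Cs root, and without that array it was 1.17. The other named members with a ratio of at most 1.39 among the 12 smallest were the V-ATPase subunits AT4G26710 and AT3G42050, AT4G16450 of complex I, AT3G08030 of the DUF642 cell wall family, and AT4G33640 and AT1G72020, for which no role is given here.

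**Figure D2:**
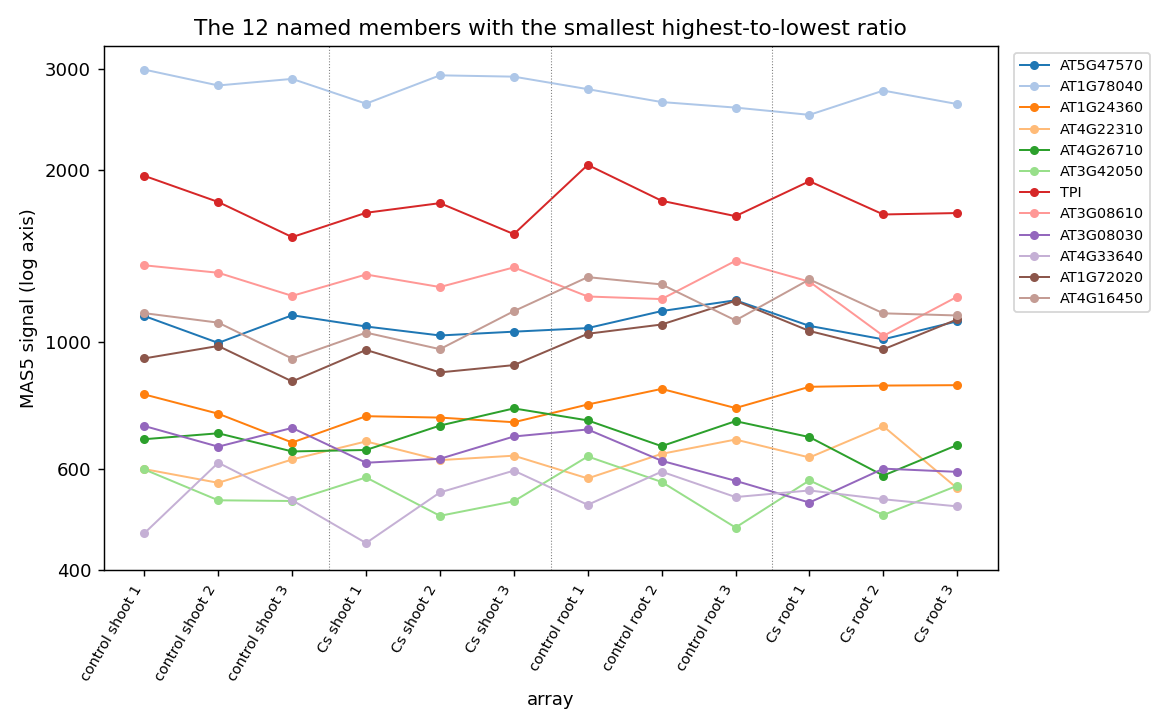
MAS5 signal (log axis) of the 12 named members with the smallest highest-to-lowest ratio on each of the 12 arrays, 1 line per gene and 1 point per array, with dotted lines between the 4 groups. Every line stays within a ratio of 1.39, and in all 12 genes the 6 shoot and the 6 root arrays overlap.

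A second measure of steadiness set each named member against the others. For every pair of the 59 members the standard deviation of their log2 ratio over the 12 arrays was taken, and these were averaged for each member, a measure in which a shift shared by all members of an array cancels. It ran from 0.19 to 0.34 with a median of 0.25. AT1G72020, AT1G24360, AT5G47570, AT4G16450, TPI and AT4G02580 had the 6 smallest values, from 0.19 to 0.21, and 5 of them were also among the 12 with the smallest ratios. AT4G02580, the 24 kDa subunit of complex I, was the exception, with a ratio of 1.47. The largest value, 0.34, belonged to AT1G63770, a peptidase of the M1 family. Both measures read the same 12 arrays, so their overlap is no separate support for steadiness. An average over pairs also favours genes that vary together, and 19 of the 59 members were placed in mitochondrial respiration.

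Mitochondrial respiration was the largest group of named members, with 19 of the 59. By the lists used here it held 11 subunits of complex I, 4 of complex III, 1 of complex IV and 1 of the ATP synthase. It also held 2 carriers of the inner membrane. The lists may be incomplete, and a subunit missing from them is counted among the other probe sets. The complex lists were written by hand after the members had been seen, so their shares are a description. Together they cover 54 probe sets that name 1 gene, of which 30 reached the limit on signal and 17 were members, 31.5% of the list. Of the 13279 probe sets that name 1 gene and read neither these lists, the V-ATPase nor a ribosomal protein gene, 112 reached the signal limit and 38 were members, 0.286%. Of the probe sets that reached the signal limit, the members made up 56.7% in the respiratory lists, 33.9% in these 13279 and 100% in the V-ATPase list, where 4 reached it. Beyond the 54, 1 member that names several genes includes a complex I gene and 1 an ATP synthase gene.

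The 11 listed members of complex I came from 27 probe sets of its listed genes, and their ratios ran from 1.19 to 1.67. Besides those above they included AT5G11770 and AT4G02580, which carry iron-sulfur clusters. The rest were the accessory subunits AT3G12260, AT3G03070, AT1G76200, AT2G20360 and AT5G52840, and OEP16-3, which was found in plant complex I. AT5G11770 read 1099, 868 and 764 in control shoots, 928, 849 and 810 in Cs shoots, 997, 1010 and 966 in control roots, and 1068, 808 and 1115 in Cs roots, and its groups overlapped. Of the 16 complex I probe sets outside the rule, 5 reached the signal limit and exceeded the ratio, 3 fell under the signal limit alone and 8 missed both. The NDUFS4-type subunit FRO1 exceeded the ratio with 2.03. It read 877, 659 and 531 in control shoots, 741, 575 and 711 in Cs shoots, 500, 433 and 546 in control roots, and 550, 507 and 589 in Cs roots, so its higher values lay in shoots.

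Complex III gave 4 members of 13 probe sets, counted together with cytochrome c. AT4G32470 and AT3G10860, small subunits of the complex, had ratios of 1.60 and 1.61, and the cytochrome c1 genes AT5G40810 and AT3G27240 had 1.62 and 1.69. AT5G40810 read 725, 499 and 513 in control shoots, 597, 448 and 480 in Cs shoots, 527, 603 and 552 in control roots, and 532, 480 and 592 in Cs roots. Both shoot groups had their highest value on the array numbered 1. Cytochrome c gene CYTC-1 exceeded the ratio with 2.10, reading 870 to 1126 in the 6 shoot arrays and 1560 to 1825 in the 6 root arrays, which did not overlap. Complex IV gave AT4G21105 as its only member of 8 probe sets, with a ratio of 1.55. The ATP synthase gave AT5G47030, its delta-prime subunit, with 1.63, of 2 probe sets. Complex II, which oxidises succinate, had no member among 4 probe sets, all of which missed both limits.

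**Figure D3:**
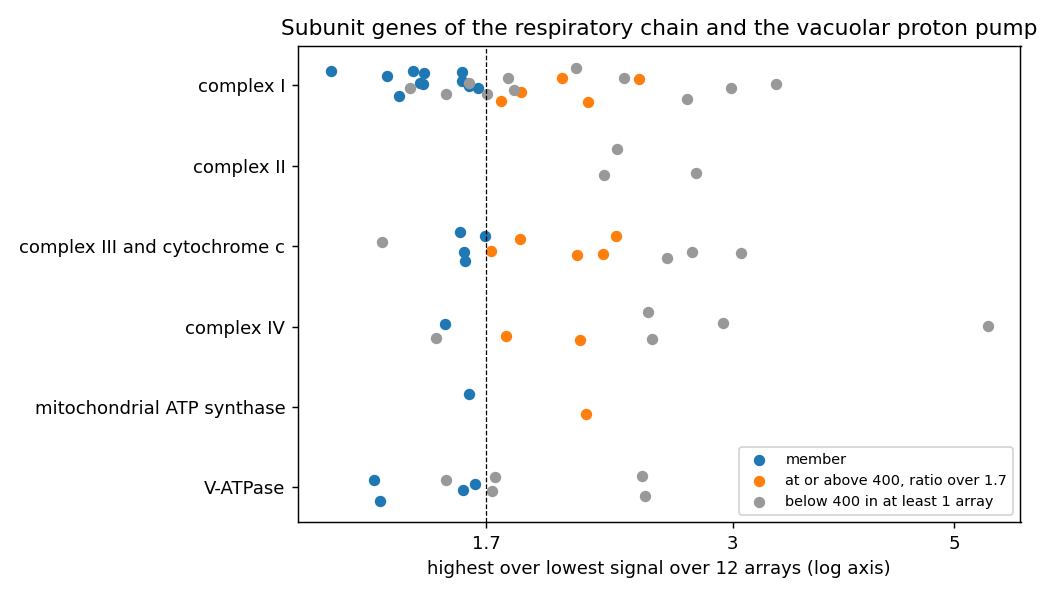
Ratio of highest to lowest signal over the 12 arrays (log axis) for 62 probe sets that name 1 subunit gene, by complex, with a random vertical offset so that points do not hide each other and 1 probe set with signals under 10 left out. Members (blue) sit left of the dashed line at 1.7, in every complex but complex II, and orange points reached the signal limit but not the ratio limit.

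The vacuolar proton pump gave 4 members of 9 probe sets that name 1 gene, and these 4 were all of the 9 that reached the signal limit. A further 4 probe sets that name several genes include a V-ATPase gene, and all 4 were members. AT4G26710, the small membrane subunit e, had a ratio of 1.31 with 677, 693 and 644 in control shoots, 648, 715 and 766 in Cs shoots, 730, 658 and 728 in control roots, and 683, 585 and 661 in Cs roots. AT3G42050, the regulatory subunit H, had a ratio of 1.33 with 599, 529 and 528 in control shoots, 580, 497 and 527 in Cs shoots, 631, 570 and 474 in control roots, and 573, 499 and 561 in Cs roots. The organs overlapped in both genes. The 2 further members leaned in opposite directions. AT4G02620, subunit F, had mean signals of 571 in shoot and 745 in root arrays, and AT3G58730, subunit D, had 733 in shoot and 591 in root arrays. Both subunits belong to the central stalk of the pump. Of the probe sets under the signal limit, VHA-A3, a vacuolar membrane form of subunit a, had a ratio of 1.55, while VHA-A1, the form of the trans-Golgi network, had 2.45.

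Among the enzymes of central metabolism, ACLA-1, a subunit of ATP-citrate lyase, which makes acetyl-CoA in the cytosol, had a ratio of 1.48. It read 479, 596 and 603 in control shoots, 581, 605 and 543 in Cs shoots, 576, 666 and 618 in control roots, and 709, 582 and 578 in Cs roots, and 1 control shoot and 1 Cs root set its extremes. SIR, the plastid sulfite reductase of sulfur assimilation, had a ratio of 1.63 with 729, 539 and 479 in control shoots, 690, 461 and 507 in Cs shoots, 611, 484 and 465 in control roots, and 682, 524 and 448 in Cs roots. In each of its groups the array numbered 1 was the highest. AT1G14810, the aspartate-semialdehyde dehydrogenase of amino acid synthesis, had a ratio of 1.61. AT5G19760, a carrier of di- and tricarboxylates across the inner mitochondrial membrane, had a ratio of 1.60 with signals from 1227 to 1957.

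The remaining roles were held by few named members. The eIF1A translation initiation factor genes AT2G04520 and AT5G35680 had ratios of 1.5 and 1.58. TUA6, an alpha-tubulin of the microtubules, had 1.66, and SPR1, a small protein that binds microtubules, had 1.42. TUA6 read 1343, 1915 and 1491 in control shoots, 1153, 1674 and 1435 in Cs shoots, 1544, 1706 and 1415 in control roots, and 1678, 1350 and 1526 in Cs roots. In shoots the array numbered 1 was its lowest. RBP45B, an RNA-binding protein, had a ratio of 1.42, and AT1G26550, a peptidyl-prolyl isomerase, had 1.63. The redox genes were PRXR1, a class III peroxidase, the glutaredoxin GRXC2 and ACYB-2, a cytochrome b561 of the tonoplast, with ratios from 1.39 to 1.65. Of the 22 named members in no role group, APA1, a vacuolar aspartic protease, had a ratio of 1.46, the cystatin CYS1, an inhibitor of cysteine proteases, 1.58, the remorin AT2G45820, a protein of plasma membrane domains, 1.61, and the zinc finger protein DI19 1.63. The genes of the 59 members lay on all 5 nuclear chromosomes, with 14, 8, 11, 12 and 14 genes on chromosomes 1 to 5, and no member gene was the direct neighbour of another.

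Genes in common use as references for Arabidopsis were read from a list of 61 loci. A probe set named 22 of them alone, and 0 of the 22 were members. Of all 13342 probe sets that name 1 gene, ribosomal protein genes left out, 59 were members, 0.442%. A count of 0 in 22 is near that share, and most of the 22 lay under the signal limit. Of 3 probe sets that name several genes and include a listed locus, 1 was a member. GAPC2, EIF4A-2 and UBC28 reached the signal limit and exceeded the ratio, with 1.71, 1.89 and 1.94. GAPC2 read 4124, 3089 and 2891 in control shoots, 3646, 3129 and 2412 in Cs shoots, 3848, 3009 and 3338 in control roots, and 3531, 3320 and 2754 in Cs roots. In every group its highest value was on the array numbered 1. UBC28, a ubiquitin-conjugating enzyme, read 1073 to 1576 in the 6 shoot arrays and 1810 to 2081 in the 6 root arrays, which did not overlap.

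A further 4 of the 22 kept within the ratio at lower signals. AT2G28390, a SAND family gene of vesicle traffic, had a ratio of 1.30, reading 121, 113 and 121 in control shoots, 117, 123 and 134 in Cs shoots, 118, 120 and 104 in control roots, and 122, 126 and 126 in Cs roots. PEX4, a ubiquitin-conjugating enzyme of peroxisomes, had 1.42, and AT4G26410 and AT2G32170 had 1.5 and 1.66. The other 15 missed both limits. The tubulin gene TUB1 had the ratio 6.81, with 42.8 to 90.7 in shoot arrays and 193 to 292 in root arrays.

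The comparison of organs asked how far the members still differed between root and shoot within their limits. Root arrays had the higher mean log2 signal in 116 of the 163 members and shoot arrays in 47, and the differences ran from -0.47 to 0.56 log2 units. Root was also the higher in 9608 of all 15508 tested probe sets. Of the 462 non-ribosomal probe sets that reached the signal limit, members included, it was the higher in 338. Because the tissues are bulk samples, fewer cells of a type and less RNA per cell cannot be told apart. The 6 root arrays lay all above or all below the 6 shoot arrays in 34 members, 28 of them higher and 6 lower in root. Of all tested probe sets 52.0% did so, 32.1% higher and 19.8% lower. By limma's adjusted p over all tested probe sets, 39 members passed the threshold of 0.05 between control roots and control shoots, 31 higher and 8 lower in root, against a background of 60.3% (38.0% higher and 22.3% lower). Between the organs of Cs plants 28 members passed, 25 higher and 3 lower, against a background of 58.0% (36.1% higher and 21.9% lower). With the replicate number as a block the counts were 57 in control and 53 in Cs plants, where 10671 and 10341 of all 15508 tested probe sets passed. Nothing is read from these counts, since small differences were a condition for being a member. Without the 4 arrays numbered 1 the counts were 31 in control and 26 in Cs plants. Both counts moved with single arrays. The count in control plants was 23 without control shoot 2, without control root 2 or without control root 3, and that in Cs plants was 16 without Cs shoot 2 or without Cs root 1, and 18 without Cs root 3.

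The widest organ difference of a named member was that of AT2G20360, the 39 kDa subunit of complex I. It read 466, 406 and 402 in control shoots, 410, 428 and 411 in Cs shoots, 569, 652 and 623 in control roots, and 656, 541 and 646 in Cs roots. All root arrays lay above all shoot arrays. On the scale log2(signal + 11) the limma difference between root and shoot was 0.52 ± 0.28 (95% interval) in control and 0.54 ± 0.28 in Cs plants. AT3G10860 of complex III read 913, 874 and 901 in control shoots, 917, 839 and 950 in Cs shoots, 1354, 1219 and 1280 in control roots, and 1109, 1161 and 1245 in Cs roots, again with no overlap of the organs. Its differences were 0.51 ± 0.25 and 0.37 ± 0.25.

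AT5G52840 of complex I read 583, 565 and 506 in control shoots, 583, 548 and 528 in Cs shoots, 725, 754 and 843 in control roots, and 729, 624 and 608 in Cs roots, and all its root arrays lay above its shoot arrays. The remorin AT2G45820 read 466, 568 and 572 in control shoots, 451, 550 and 537 in Cs shoots, 615, 660 and 674 in control roots, and 679, 696 and 728 in Cs roots. Its root arrays also lay above its shoot arrays. In the opposite direction, AT1G63770 read 541, 735 and 737 in control shoots, 608, 728 and 619 in Cs shoots, 491, 566 and 478 in control roots, and 493, 572 and 522 in Cs roots, with some overlap. Its difference between root and shoot was -0.37 ± 0.33 in control plants.

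The subunit lists, members and others, were also read between organs, with the members among them held within narrow differences by the rule. In control plants, where limma called 38.0% of all tested probe sets higher and 22.3% lower in root, it called 14 of 27 complex I probe sets higher and 1 lower. Their median difference was 0.34 and that of all tested probe sets 0.24. Of 13 for complex III and cytochrome c, 8 were higher and 0 lower, with a median of 0.51, and of 8 for complex IV, 5 were higher and 1 lower, with a median of 0.63. For the V-ATPase 3 of 9 were higher and 0 lower, with a median of 0.12. In Cs plants, where 36.1% of all tested probe sets were called higher and 21.9% lower, 8 of 27 were higher and 0 lower for complex I, 7 of 13 and 0 for complex III and cytochrome c, 5 of 8 and 1 for complex IV, and 3 of 9 and 0 for the V-ATPase. The medians there were 0.27, 0.45, 0.58 and 0.17, and that of all tested probe sets 0.22. In both control and Cs plants the medians of complexes I, III and IV were positive and above that of all tested probe sets with quantile normalization, with array median centring and with scaling on the members. That of the V-ATPase lay below it under these settings, except in Cs plants with quantile normalization, where it was 0.22 against 0.15. In control plants it was 0.00 with array median centring.

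**Figure D4:**
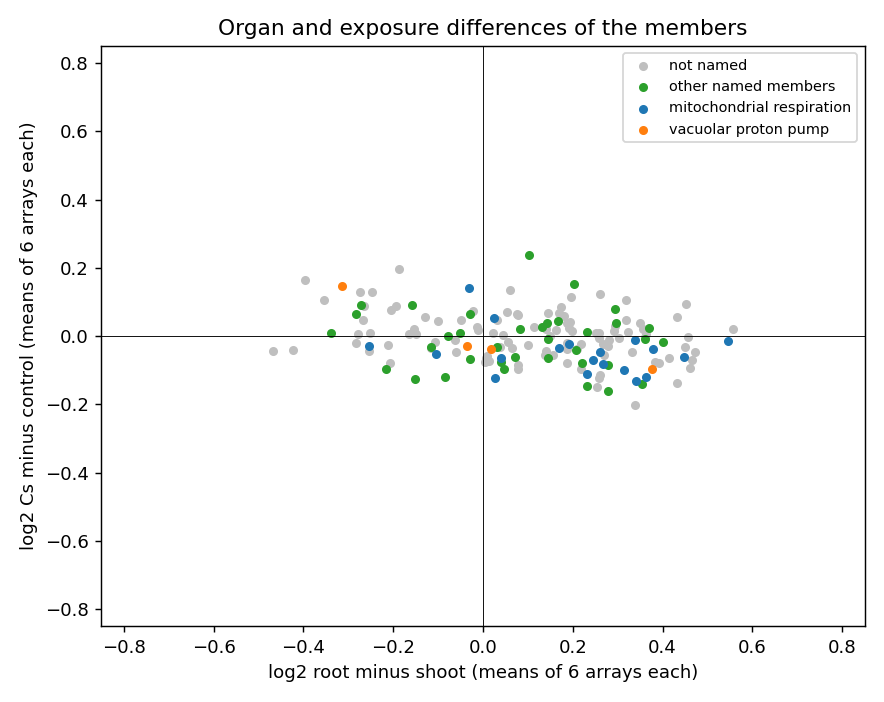
Mean log2 signal of 6 root minus 6 shoot arrays (horizontal) against that of 6 Cs minus 6 control arrays (vertical) for the 163 members, 1 point each, on axes of equal length. Organ differences run from -0.47 to 0.56 and exposure differences from -0.20 to 0.24. With the deposited scaling 116 of the 163 members lie right of zero, among them 16 of the 19 of mitochondrial respiration (blue).

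The series compares Cs with control plants, and a small difference between them was a condition for being a member. The differences of the members ran from -0.31 to 0.27 log2 units in shoots and from -0.30 to 0.31 in roots, and the 95% interval of a single difference had a median of ± 0.31. By limma 0 members passed the adjusted threshold in shoots and 0 in roots, and the background was 0% in both. At an unadjusted p under 0.05 there was 1 member in each organ, among 324 tested probe sets in shoots and 589 in roots. This fit left out the replicate number. With it as a block, 818 tested probe sets in shoots and 1381 in roots had such a p, 1 and 3 of them members. Again 0 members passed the adjusted threshold, which 6 tested probe sets passed in roots and 0 in shoots. The 3 Cs arrays lay all above or all below the 3 control arrays in 8 members in shoots, 2 higher and 6 lower, and in 18 members in roots, 9 higher and 9 lower. In all tested probe sets this held for 6.35% in shoots and 8.89% in roots.

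PRXR1 had the lowest shoot difference. It read 3594, 3713 and 4239 in control shoots and 2747, 3325 and 3261 in Cs shoots, which did not overlap, and 4111, 3839 and 4146 in control roots and 3701, 4025 and 4543 in Cs roots, which did. Its difference between Cs and control was -0.31 ± 0.28 in shoots and 0.02 ± 0.28 in roots. APA1 read 2095, 1779 and 1838 in control shoots and 1440, 1678 and 1653 in Cs shoots, again without overlap. In roots it read 1729, 1464 and 1702 in control plants and 1729, 1722 and 1883 in Cs plants. Its differences were -0.26 ± 0.28 and 0.13 ± 0.28. In roots AT1G14810 read 802, 809 and 797 in control plants and 754, 651 and 563 in Cs plants, which did not overlap, and its difference was -0.30 ± 0.39. CYS1 read 827, 723 and 873 in control roots and 701, 715 and 673 in Cs roots, which did not overlap either.

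Organ, exposure and spread within groups took unequal shares of the members' variation. Of the sum of squares of a member's log2 signals, organ held a median of 37.3%, exposure 2.50% and the spread between arrays of a group 52.9%. In all tested probe sets these medians were 66.1%, 1.06% and 27.6%. The shares are not sizes of effects, since the spread within groups draws on more independent differences than organ or exposure. The rule also held the organ and exposure differences of the members small. The standard deviation of log2 signals within groups had a median of 0.15 in the members and 0.29 in all tested probe sets.

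Steadiness in arrays that had no part in the choice was read by applying the limits to some of the arrays and looking at the others. Control and Cs arrays were not independent, since same-numbered shoot arrays deviated together, by up to 0.71. A ratio limit is also easier to keep over 4 arrays than over 8. No such share was taken for other abundant probe sets, so the shares below are a description. In the 6 control arrays alone 227 probe sets met both limits, and 181 of these, 79.7%, also met them within the 6 Cs arrays alone. Over all 12 arrays 163 of the 227 met them, 71.8%. These 163 are the members, since a member meets the limits in any subset of the arrays. In the 6 Cs arrays 257 met the limits, and the same 181 probe sets, 70.4% of the 257, met them within the control arrays. The 2 shares thus read 1 overlap of the control and the Cs list. Chosen in the 8 arrays numbered 2 and 3, 199 of 256 probe sets, 77.7%, kept to the limits within the 4 arrays numbered 1. Chosen in the arrays numbered 1 and 3, 181 of 194 did so within those numbered 2, 93.3%, and chosen in the arrays numbered 1 and 2, 188 of 236 did so within those numbered 3, 79.7%. The widest ratio in held-out arrays was 13.2, in the arrays numbered 1, where it was 2.14 in those numbered 2 and 2.68 in those numbered 3.

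The median offset of the members from their own means shows what scale they would give each array. It was 0.03, -0.05 and -0.10 log2 units in control shoots, -0.06, -0.07 and -0.06 in Cs shoots, 0.08, 0.09 and 0.09 in control roots, and 0.10, 0.01 and 0.08 in Cs roots. All root arrays but Cs root 2 lay above all shoot arrays. The offsets spanned 0.20 log2 units with the deposited scaling, in which the mean of each array's signals, trimmed by 2% at each end, was 100. With quantile normalization they spanned 0.45, with root arrays higher, and with array median centring 0.29, where the mean offset was 0.02 in shoots and 0.00 in roots.

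The organ difference of the members thus depended on the scaling. In control plants its median over the members was 0.13 with the deposited scaling, 0.38 with quantile normalization and 0.01 with array median centring, where the medians over all tested probe sets were 0.24, 0.18 and 0.13. Relative to all tested probe sets the members were lower in root by the deposited scaling (-0.11) and by median centring (-0.13), and higher by quantile normalization (0.20). The number of members past limma's threshold in control plants was 89 with quantile normalization, all 89 higher in root, and 26 with median centring, 8 higher and 18 lower. Membership depended on the scaling too. Under the deposited scaling, quantile normalization and median centring alike, 60 of the 163 members met both limits, and 24 of the 59 named members were among them. These 24 include all 12 named members with the smallest ratios and, besides, ACYB-2, RBP45B, SPR1, APA1 and ACLA-1. Of the 59 named members, 29 exceeded a ratio of 1.7 after quantile normalization, and PRXR1 reached 2.47.

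**Figure D5:**
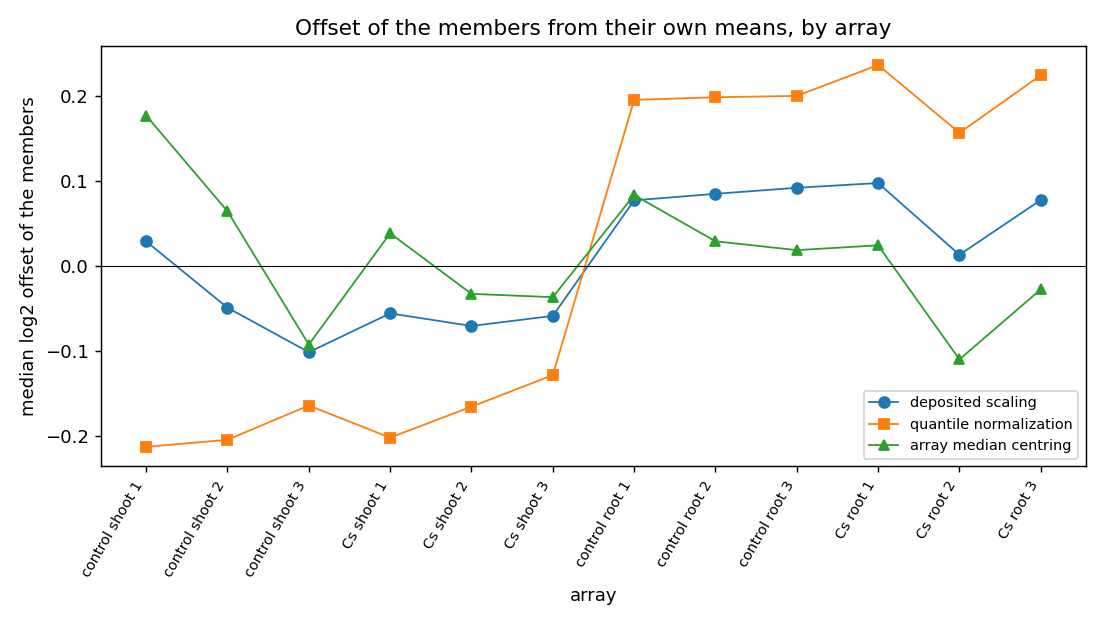
Median offset of the 163 members from their own 12-array means, in log2 units, on each array, 1 line per scaling. The deposited scaling (circles) spans 0.20, quantile normalization (squares) separates shoot from root arrays over 0.45, and array median centring (triangles) spans 0.29 without such a step.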

How the data were processed

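The authors deposited 1 MAS5 signal (intensity, linear scale) per probe set and array, and MAS5 is named without a version per the submitters' processing notes. How background was corrected is not stated in any source read here, nor are detection calls. All 12 columns were used (0 were left out), and no pair of arrays was identical (0 pairs). Of 22746 probe sets, 13513 name 1 gene, 503 several and 8730 are not listed. Symbols follow the RefSeq TAIR10.1 table, which held 13436 of the 13513. It holds no descriptions, so roles and complex lists were written by hand from general knowledge. The members and lists were chosen with earlier results of these data known.

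Probe sets whose mean log2 signal reached the 40th percentile in at least 1 organ were tested (15508). Limma 3.58.1 in R 4.3.3 (lmFit, eBayes with trend) was fitted to log2(signal + 11) of all 12 arrays with 4 group means, with Benjamini-Hochberg adjustment over all tested probe sets, and was tested on simulated data. Other values were computed in Python 3.11.15. The rule for named genes took the 12 members with the smallest ratio, the 8 with the highest mean signal, up to 4 in each role group, 3 on each side of each limit, and 3 with the smallest p in each comparison. Other members named were chosen after their values were seen. A signal depends on the probes as well as the transcript, so signals of different genes give no order of transcript levels. The number of arrays limits the precision.

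Replicate numbers are shared between groups. Deviations of same-numbered control and Cs arrays from their group means correlated by 0.71, 0.41 and 0.45 in shoots and by 0.47, -0.02 and 0.40 in roots, so the data pair the shoots and not all roots, and a replicate block within each organ was an alternative. Other alternatives were the pseudocount, the filter, 3 other scalings, the limits of the rule and leaving out arrays. Following the lists and the root minus shoot offset through the scalings was added after seeing the data. Promoter and protein sequences were not used here.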

Additional observations from a re-analysis of the deposited data

How the results depend on the processing

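The count of members past limma's threshold between Cs and control plants was 0 in both organs under each alternative run, which says nothing about stability, since the rule holds these differences small. The organ counts moved. For root against shoot in control plants (39 members), quantile normalization gave 89, members with a ratio of at most 1.5 gave 7 and of at most 2.0 gave 104, and leaving out 1 array gave 23 to 42. In Cs plants (28 members) the count was 18 without the filter and 18 with median centring, 89 with quantile normalization, 5 and 88 for the ratio limits 1.5 and 2.0, and 16 to 30 with 1 array left out. With the replicate block, which pairs same-numbered arrays within an organ, the counts were 57 in control and 53 in Cs plants. The cause was not tested.

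The number of members (163) was 343 and 69 for signal limits of 200 and 800, 74 and 283 for ratio limits of 1.5 and 2.0, 95 with quantile normalization, 256 without the arrays numbered 1, 257 in the Cs arrays, 878 in the shoot and 885 in the root arrays alone, where fewer arrays must keep to the limits, and 166 to 182 with 1 array left out.

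The share of probe sets chosen in some arrays that met the limits over all 12 was 71.8%, 63.4%, 63.7%, 84.0% and 69.1% for the control arrays, the Cs arrays and the arrays numbered 2 and 3, 1 and 3, and 1 and 2. With a ratio limit of 1.5 it was 58.3%, 49.7%, 47.1%, 77.1% and 53.2%, and with 2.0 it was 82.0%, 79.7%, 76.3%, 91.9% and 81.1%. With quantile normalization it was 60.1%, 56.5%, 51.6% and 76.0% for the first 4 of these. Under a given setting the probe sets that met the limits over all 12 arrays were the same for every choice of arrays. These shares therefore only restate how many probe sets each choice gave. The span of the array offsets was 0.45 with quantile normalization and 0.29 with median centring. The root minus shoot mean offset was 0.38 and -0.02 with these scalings and 0.13 over the members that name 1 gene. Dim transcripts were outside the rule, and how far background enters these values was not tested.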

Other observations

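The arrays numbered 1 kept some abundant transcripts out of the members, and so did those numbered 2 and 3. Without the arrays numbered 1, 256 probe sets met the limits, against 163 over all arrays. The number was 194 without those numbered 2 and 236 without those numbered 3, and only the first case is described here. Of the probe sets that name 1 gene, 26 met both limits over the 8 arrays numbered 2 and 3 and missed them over all 12. The examples that follow were chosen after their values were seen. COR47, a dehydrin known from cold and drought responses, read 654 to 834 in the 4 shoot arrays numbered 2 and 3, and 271 and 299 in control and Cs shoot 1, and its ratio was 1.69 over the 8 arrays and 4.06 over all 12. LCR69, a defensin-like peptide gene, read 959 to 1125 in those 4 shoot arrays and 511 and 346 in control and Cs shoot 1. AT4G05150 read 595 to 695 in the 4 shoot arrays and 256 and 203 in control and Cs shoot 1. AT1G67870 differed in root instead, with 222 in control root 1, where the other root arrays read 568 to 822. Others of the 26 were higher in shoot arrays numbered 1. SAMDC read 4578 and 4217 in control and Cs shoot 1 and 2601 to 3069 in the 4 other shoot arrays. EIF4A-2 read 908 and 850 there and 481 to 545 in the 4 others. Some missed the ratio limit narrowly, such as GAPC2 with 1.71 over all 12 arrays. The cause of these low and high values was not tested.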
